A study of Mus musculus with 75 samples.

Results

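The 7 genes *Chl1*, *Ngfr*, *Tubb3*, *S100b*, *Gria1*, *Colq* and *Ankrd34b* were followed in whole lung of 75 mice, as 7 of the 55536 genes in the count table. They are associated with nerve, glia or synapse in other tissues, and they were picked because several of them changed strongly in these lungs. Their differences between groups are therefore given as a description, with an approximate standard error (SE) worked back from the fit and no test. Nothing is read from how many of them passed a threshold. Their calls against CTRL in the fit over all genes are listed once, for orientation. Results are drawn from tests of other genes, whose lists were also chosen with earlier results of these data known, and of differences between mice of 1 group.

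The study followed pulmonary fibrosis after a single intratracheal instillation of bleomycin (BLEO), which injures the alveolar epithelium, in male C57BL/6JRj mice aged 12 to 14 weeks at dosing. Controls (CTRL, n = 10) carry the label saline, while the treatment protocol describes them as untreated. BLEO-IPF mice were kept in the study when they had lost 5% to 17% of body weight on day 6, and lungs were taken on day 7 (n = 10), day 14, 21, 28 and 35 (n = 12 each) and day 42 (n = 7). PolyA RNA of the inferior lobe of 1 mouse made 1 library of 9240291 to 14665247 counts, and levels are given as CPM, counts scaled to a common library size.

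Lung nerves are axons whose cell bodies mostly lie outside the lung, in the vagal, sympathetic and dorsal root ganglia, and they run with Schwann cells along airways and vessels. RNA of a lung lobe therefore holds little of the neuronal cell body, and glial transcripts come from thin nerve bundles. Several genes first known from neurons are also used by epithelium, fibroblasts or leukocytes. In such bulk samples, fewer cells of a type and less RNA per cell cannot be told apart.

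Defining markers of both cell types were scarce. *Sox10*, the transcription factor of the Schwann cell lineage, had a median of 2 counts and at most 11 in a library, and the neuronal RNA-binding protein gene *Elavl4* had at most 4. Of 28 neuron genes 10 had enough counts to be tested, against 24 of 33 Schwann cell genes, and the latter lists include genes that lung expresses widely, such as *Mbp* at 69 ± 8.2 CPM (SD, n = 10) in CTRL.

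There were 2 libraries with transcripts of fat, nerve or muscle above those of the others. The library of replicate 8 of day 7 had 13 counts of *Cldn19*, a claudin of Schwann cells, and 797 of *Adipoq*, the fat cell hormone adiponectin. That of replicate 10 of day 28 had 14 of *Cldn19*, 1951 of *Adipoq* and 5828 of *Acta1*, the actin of skeletal muscle. The next highest library had 6 of *Cldn19*, 37 of *Adipoq* and 15 of *Acta1*, and the medians over all mice were 1, 2 and 2. The levels of *Ngfr* and *Ankrd34b*, the counts of correlations between the 7 genes and the counts of nerve genes on these days are also given without them. Correlations with marker scores are given with all mice.

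*Chl1* (ENSMUSG00000030077, chromosome 6, 103510586 to 103750211 of GRCm38, plus strand) encodes a neural adhesion molecule of the L1 family. *Tubb3* (ENSMUSG00000062380, chromosome 8, 123411424 to 123422015, plus) encodes the β-tubulin class used as a marker of neurons, and *Ankrd34b* (ENSMUSG00000045034, chromosome 13, 92425896 to 92441658, plus) an ankyrin repeat protein. *S100b* (ENSMUSG00000033208, chromosome 10, 76253853 to 76261159, plus) encodes a calcium-binding protein of astrocytes and Schwann cells, and *Ngfr* (ENSMUSG00000000120, chromosome 11, 95568818 to 95587735, minus) the p75 neurotrophin receptor. *Gria1* (ENSMUSG00000020524, chromosome 11, 57011387 to 57330244, plus) encodes a subunit of the AMPA glutamate receptor. *Colq* (ENSMUSG00000057606, chromosome 14, 31523082 to 31591343, minus) encodes the collagen tail that anchors acetylcholinesterase in the basal lamina of the neuromuscular junction. *S100b* lies on the strand opposite *Dip2a*, with which it shares 0 exon bases, and the strand setting of the counting is not given in the sources used here.

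Promoter sequence from RefSeq (GRCm38.p6) was at hand for 5 of the 7 genes. Those of *Tubb3*, *Ankrd34b*, *Ngfr* and *S100b* are shown, so that the GC-rich starts of the first 3 can be read beside that of *S100b*. The bases run 5′ to 3′ on the strand of the gene and end before the gene start given above or, for *S100b*, before the RefSeq start, which lies ahead of it; capitals mark a GC box (GGGCGG) or a CCAAT box (CCAAT) on either strand. The windows are chr8:123411303-123411423 (plus), chr13:92425719-92425895 (plus), chr11:95587736-95587948 (minus) and chr10:76253586-76253835 (plus).
Tubb3: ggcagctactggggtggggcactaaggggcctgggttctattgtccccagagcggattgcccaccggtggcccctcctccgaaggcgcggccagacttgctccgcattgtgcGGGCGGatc
Ankrd34b: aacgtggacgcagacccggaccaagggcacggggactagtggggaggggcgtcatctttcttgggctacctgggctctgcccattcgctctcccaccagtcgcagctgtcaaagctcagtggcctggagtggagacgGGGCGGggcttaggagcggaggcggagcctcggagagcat
Ngfr: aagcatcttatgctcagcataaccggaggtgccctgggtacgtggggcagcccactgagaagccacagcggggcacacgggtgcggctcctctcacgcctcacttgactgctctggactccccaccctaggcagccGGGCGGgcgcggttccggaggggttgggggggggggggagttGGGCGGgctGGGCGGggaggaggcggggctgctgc
S100b: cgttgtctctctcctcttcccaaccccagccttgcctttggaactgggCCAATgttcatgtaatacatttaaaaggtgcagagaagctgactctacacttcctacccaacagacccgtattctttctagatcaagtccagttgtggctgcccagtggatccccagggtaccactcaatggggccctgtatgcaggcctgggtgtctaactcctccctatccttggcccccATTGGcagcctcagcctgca

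In the 250 bases before the RefSeq start, GC content was 68% in *Tubb3*, 70.8% in *Ankrd34b* and 70.4% in *Ngfr*, against 53.6% in *S100b*, 52.4% in *Chl1* and a median of 52.4% over 32851 promoters. *Tubb3*, *Ankrd34b* and *Ngfr* held at least 1 GC box, as 32.7% of all promoters did, and *S100b* and *Tubb3* a CCAAT box, as 33.8% did. That of *Tubb3* lies past the bases shown, which end at the first annotated start and not at the RefSeq start. None of the 5 held the letters TATAAA (12.4% of all), TGANTCA, the AP-1 motif (6.75%), or GGAATG, the TEAD motif (12.6%), on either strand. These are matches of letters in a window and no measurement of binding.

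By the threshold used for other genes (adjusted p under 0.05, edgeR's quasi-likelihood test against CTRL), all 7 genes were past it on day 7, where 45.8% of the 16221 genes tested were, 24.8% upward and 21% downward. *Chl1*, *Tubb3*, *Ankrd34b*, *S100b* and *Ngfr* were past it upward and *Gria1* and *Colq* downward. On days 14, 21, 28 and 35 the same genes other than *Ngfr* were past it, 4 upward and 2 downward. The shares of all genes were 62.4% on day 14 (32.4% up, 29.9% down), 54.2% on day 21 (28.3% up, 25.8% down), 43.3% on day 28 (24.1% up, 19.2% down) and 29.9% on day 35 (16.9% up, 13.1% down). On day 42, 4 were past it upward and *Gria1* downward, beside 24.7% of all genes (13.7% up, 11% down). These contrasts chose the genes, so nothing is read from the counts.

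*Chl1* was nearly absent from CTRL lungs and stood above the CTRL range in all mice up to day 35. In CTRL mice it had 1 to 6 counts per library, with a lowest, median and highest level of 0.0928, 0.389 and 0.571 CPM. On day 7 the same 3 values were 9.98, 24.3 and 39.6 CPM, and on day 14 they were 9.35, 50.9 and 169.7 CPM. Every mouse of days 7 and 14 lay above every CTRL mouse. The 3 values were 4.00, 18 and 109 CPM on day 21 and 1.12, 10.1 and 100.7 CPM on day 28. They were 1.49, 7.35 and 24.6 CPM on day 35 and 0.515, 4.24 and 13.8 CPM on day 42. All mice of days 21 to 35 and 6 of 7 mice of day 42 stayed above the CTRL range.

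The *Chl1* mean was 62.9 times that of CTRL on day 7, 160.4 times on day 14 and 15 times on day 42. The log2 fold change (log2FC) against CTRL was 5.95 (SE 0.85) on day 7, 7.30 (SE 0.83) on day 14 and 3.87 (SE 0.97) on day 42. These SE rest on 1 spread shared by all groups, while the SD of its log2 CPM was 0.43 in CTRL and 2.15 on day 28. The 10 CTRL libraries together held 42 counts (95% Poisson interval 30.3 to 56.8, counting error only), so the size of these folds rests on few control counts. Group means fell in the order day 14, 21, 7, 28, 35, 42 and CTRL, and each neighbouring pair of BLEO days differed by less than the larger of their SDs.

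*Tubb3* was also low in CTRL lungs and higher after BLEO, and from day 21 on its groups overlapped CTRL. CTRL mice had 0.285, 0.855 and 1.53 CPM as lowest, median and highest. On day 7 the values were 3.94, 5.67 and 7.25 CPM and on day 14 they were 3.43, 6.18 and 9.79 CPM, with no overlap with CTRL on either day. On day 21 they were 1.17, 5.00 and 15.3 CPM and on day 28 they were 1.12, 3.38 and 9.64 CPM. From day 21 the lowest mice reached into the CTRL range, 1 of 12 on day 21, 2 of 12 on day 28, 4 of 12 on day 35 and 2 of 7 on day 42. The log2FC was 2.76 (SE 0.38) on day 7, 3.06 (SE 0.37) on day 21 and 1.73 (SE 0.41) on day 42. How reads shared with other tubulin genes were counted is not given in the sources used here.

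*Ankrd34b* differed from *Chl1* and *Tubb3* in its timing. CTRL mice had 0.0889, 0.147 and 0.449 CPM (1 to 5 counts), and day 7 mice 0.176, 0.652 and 1.58 CPM. On day 14 the values were 3.36, 5.67 and 9.18 CPM and on day 42 they were 1.20, 2.60 and 5.50 CPM. All mice from day 14 on lay above CTRL, as did 9 of 10 on day 7. The log2FC was 1.83 (SE 0.52) on day 7, 4.94 (SE 0.43) on day 14 and 3.94 (SE 0.47) on day 42. Day 7 had the lowest mean of the BLEO days, 0.699 ± 0.375 CPM (SD, n = 10), and the day 35 mean, next above it, exceeded it by more than the larger SD. The CTRL libraries held 21 counts in all (95% Poisson interval 13 to 32.1).

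*S100b* was higher in BLEO-IPF mice throughout, with day 14 highest. CTRL mice had 0.444, 0.983 and 1.90 CPM, day 14 mice 3.21, 4.68 and 8.18 CPM and day 42 mice 1.37, 2.16 and 3.18 CPM. Days 14, 21 and 35 did not overlap CTRL, and on days 7, 28 and 42 the lowest 1, 2 and 2 mice did. The log2FC was 1.34 (SE 0.22) on day 7, 2.17 (SE 0.21) on day 14 and 1.01 (SE 0.24) on day 42. The day 14 mean of 5.12 ± 1.64 CPM (SD, n = 12) exceeded that of day 35, next in order, by more than the larger SD, while days 35, 21, 28 and 7 were within 1 SD of their neighbours.

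*Ngfr* stood near its CTRL level on most days. CTRL mice had 0.539, 1.01 and 2.10 CPM, day 7 mice 0.893, 2.30 and 4.66 CPM and day 14 mice 0.420, 1.38 and 2.94 CPM. On day 42 the values were 0.794, 1.21 and 1.64 CPM. On day 7, 6 of 10 mice were above all CTRL mice, on day 14 1 of 12, and on day 42 0 of 7. The log2FC was 1.03 (SE 0.26) on day 7, lay between 0.25 and 0.50 on days 14 to 35 and was -0.01 (SE 0.30) on day 42. With 5 to 56 counts per library, differences of this size were close to the spread between mice, and no neighbouring groups in the order of means differed by more than 1 SD. Day 7 and CTRL stood at the ends of that order. Their means of 2.38 ± 1.10 and 1.16 ± 0.49 CPM (SD, n = 10 each) differed by more than the larger SD.

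*Gria1* and *Colq* were the 2 genes that were lower. *Gria1* had 28.8, 36.7 and 45.8 CPM in CTRL mice, 10.1, 15.4 and 26.9 CPM on day 7 and 2.23, 5.38 and 11.3 CPM on day 14. On day 28 the values were 0.678, 5.51 and 16.4 CPM and on day 42 they were 2.90, 7.61 and 12.3 CPM. All 65 BLEO-IPF mice lay below all CTRL mice. The log2FC was -1.12 (SE 0.36) on day 7, -2.63 (SE 0.36) on day 14 and -2.33 (SE 0.43) on day 42.

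*Colq* had 25.2, 37.9 and 45.9 CPM in CTRL mice, 2.59, 8.22 and 19.6 CPM on day 7 and 0.994, 3.61 and 9.17 CPM on day 14. On day 28 the values were 1.91, 12.5 and 38.4 CPM, and on day 42 they were 5.21, 17.3 and 47.2 CPM. On days 7 to 21 every mouse was below CTRL, whereas 3 of 12 mice on day 28 and 4 of 12 on day 35 were within the CTRL range. On day 42, 4 of 7 mice were below all CTRL mice, 2 within their range and 1 above. The log2FC was -2.11 (SE 0.43) on day 7, -3.13 (SE 0.43) on day 14 and -0.60 (SE 0.45) on day 42.

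Set against each other within a mouse, *Colq* and *Gria1* followed different courses. The difference of their log2 CPM (*Colq* minus *Gria1*) had a median of -0.01 in CTRL mice, -0.96 on day 7, 0.33 on day 21 and 1.84 on day 42. Its range was -2.26 to 0.40 on day 7 and 0.81 to 2.06 on day 42, so these 2 days did not overlap, and 0.81 on day 42 also lay above the CTRL maximum of 0.67. Both genes were picked with their days in view, so this is a description without a test.

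**Figure D1:**
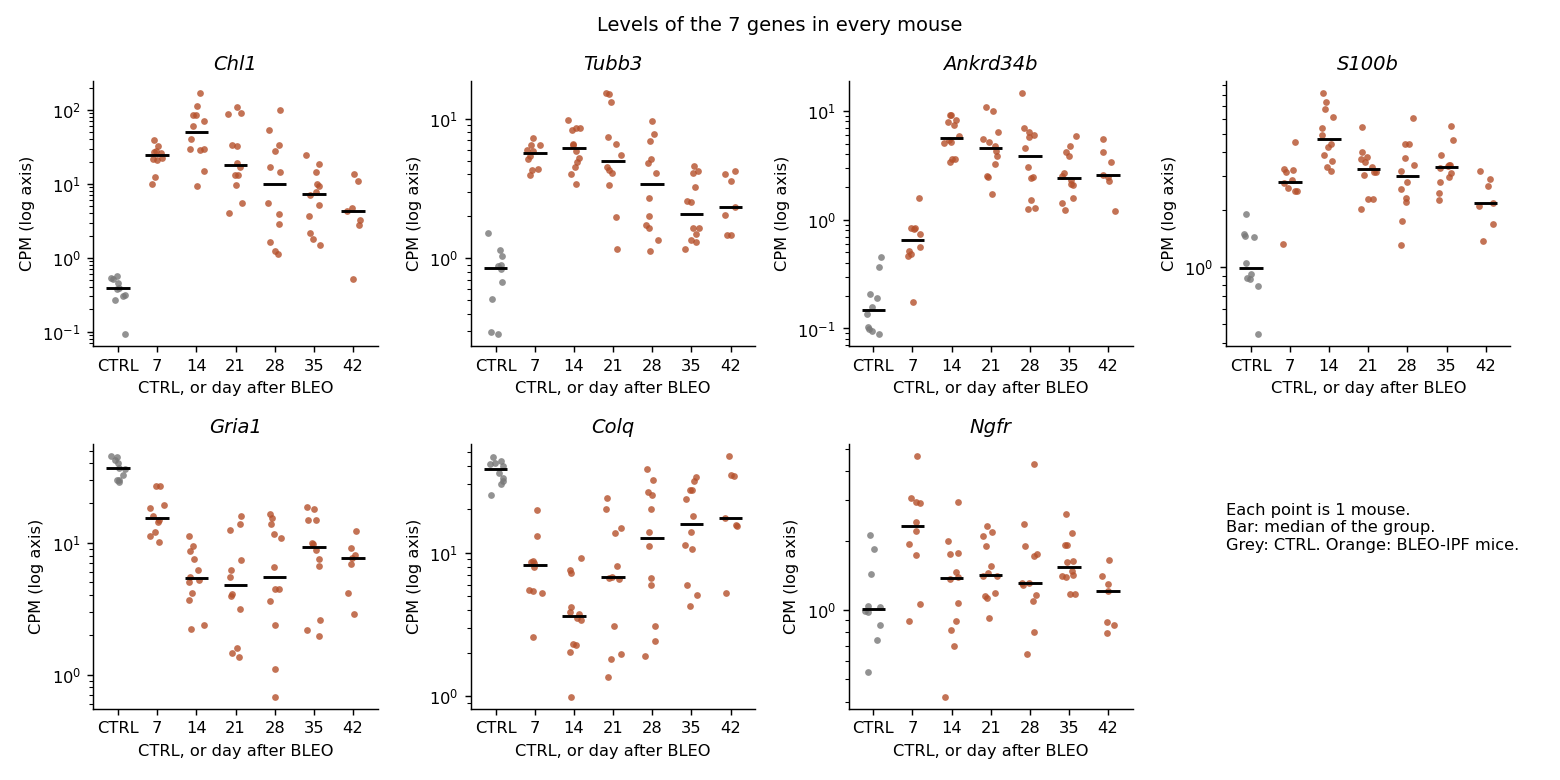
Level of each gene in CPM (log axis) in CTRL mice and on each day after BLEO administration; 1 point is 1 mouse and the bar is the median of the group. All day 14 mice lie above CTRL in *Chl1*, *Tubb3*, *Ankrd34b* and *S100b*, *Gria1* lies below CTRL in all 65 BLEO-IPF mice, *Colq* overlaps CTRL from day 28, and *Ngfr* overlaps CTRL on every day.

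Per kilobase of exon, *Colq* and *Gria1* had the highest mean levels in CTRL lungs, 9.68 and 6.10 CPM per kb, and *Chl1* and *Ankrd34b* the lowest, 0.0312 and 0.0400 CPM per kb. On day 14 *Chl1* was highest at 5.01 CPM per kb, followed by *S100b* at 3.45 and *Tubb3* at 3.40, while *Colq* stood at 1.10, *Gria1* at 0.986 and *Ngfr* at 0.401 CPM per kb.

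Mice of 1 day differed widely from each other. On day 28 the highest *Gria1* level was 24.3 times the lowest and that of *Colq* 20.1 times, against 1.59 and 1.83 times in CTRL mice, and *Chl1* ran from 1.12 to 100.7 CPM. Whether the 7 genes varied together between mice of 1 group was tested for the 21 pairs in each of the 7 groups, as correlations of log2 CPM with permutation p-values adjusted over all pairs and groups. Of these, 50 passed, 20 positive and 30 negative. In CTRL mice 1 of 21 pairs passed and on day 7 there were 4, against 10 on days 14, 21 and 28, 11 on day 35 and 4 on day 42 (n = 7). CTRL libraries held at most 6 counts of *Chl1* and 5 of *Ankrd34b*, which limits what could pass there. Without the 2 libraries that stood apart, the same 4 pairs passed on day 7 (n = 9) and the same 10 on day 28 (n = 11).

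From day 14 to day 35, *Chl1* went with *Tubb3* and with *Ankrd34b* on every day, and the last 2 went together on day 28 (r = 0.89, rho = 0.85). On day 14 the r of these 2, 0.70, passed and their rho of 0.66 did not, and on day 21 their rho of 0.73 passed and their r of 0.64 did not. On day 35 their r did not pass either. *Chl1* and *Tubb3* had a Pearson's r of 0.96 and a Spearman's rho of 0.93 on day 28 (n = 12, adjusted permutation p = 0.000294 and 0.00103). *Chl1* and *Ankrd34b* had an r of 0.94 and a rho of 0.94 on that day (adjusted permutation p = 0.000327 and 0.00049). Without the 2 mice farthest from the median of *Chl1*, r was 0.94 and 0.97. On day 14 the same pairs had an r of 0.71 and 0.72, both past the threshold, with a rho of 0.76, which passed, and 0.68, which did not. In CTRL mice they had an r of -0.07 and -0.29, neither past the threshold. Counts per library there were 1 to 6 of *Chl1*, 3 to 17 of *Tubb3* and 1 to 5 of *Ankrd34b*, too few to show whether these genes varied together.

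*Gria1* and *Colq* were likewise high in the same mice, from day 21 on. Their r was 0.98 on day 21, 0.94 on day 28 and 0.96 on day 35, with rho of 0.99, 0.95 and 0.94 (n = 12 each, adjusted permutation p of 0.000294 to 0.000327 for r and of 0.000367 to 0.00084 for rho). On day 42, r was 0.92 and rho 1.00 (n = 7, adjusted exact permutation p = 0.00154 and 0.00343). In CTRL mice r was -0.66 and did not pass. On day 14 it was 0.64 and did not pass, while the rho of 0.73 did.

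Between these sets, of which 1 was higher than CTRL after BLEO and 1 lower, the relation was negative. Other genes with group differences of like size and direction were not compared, so these signs are not read as particular to the 7 genes. *Chl1* and *Colq* had an r of -0.80 on day 7, -0.85 on day 14, -0.93 on days 21 and 28 and -0.92 on day 35, all past the threshold. On day 28 the adjusted permutation p was 0.000612 for r and 0.00331 for the rho of -0.87, and r was -0.91 without the 2 mice farthest from the median. On day 7 rho was -0.55 and did not pass. *Tubb3* and *Gria1* had an r of -0.97 and a rho of -0.99 on day 21 (adjusted permutation p = 0.000294 and 0.000367). On day 42 *Gria1* and *Ankrd34b* had an r of -0.92 (n = 7, adjusted exact permutation p = 0.015), but their rho of -0.82 did not pass.

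On day 21, 3 of 12 mice stood apart, with 13.3 to 15.3 CPM of *Tubb3* against at most 7.46 in the other 9 and at least 88.2 CPM of *Chl1*, above each of the other 9. Among the other 9, r was 0.94 for *Gria1* and *Colq*, -0.82 for *Chl1* and *Colq* and 0.59 for *Chl1* and *Tubb3*, where all 12 gave 0.98, -0.93 and 0.85. The last of these rested in part on the 3 mice.

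*S100b* went with *Ankrd34b* on days 21 and 35 (r = 0.77 and 0.85, rho = 0.74 and 0.84), against *Gria1* on day 14 (r = -0.77, rho = -0.71). Its r passed but its rho did not with *Gria1* on day 35 (r = -0.71, rho = -0.62) and with *Chl1* on day 14 (r = 0.71, rho = 0.62). On day 28 none of its 6 pairs passed. *Ngfr* had 5 to 56 counts per library, so counting error limited which of its correlations could pass. Only 2 of its 42 correlations were past the threshold. They were with *Chl1* on day 7 (r = 0.79, rho = 0.76), which fell to 0.30 without the 2 mice farthest from the median of *Chl1*, and with *S100b* on day 42 (r = 0.87, rho = 0.89, adjusted exact permutation p = 0.0461 and 0.0431). The other 1 of the 50 whose r fell under 0.5 without 2 mice was *S100b* with *Colq* in CTRL mice, at 0.75 and then 0.44. For 41 of the 50 Spearman's rho passed as well.

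**Figure D2:**
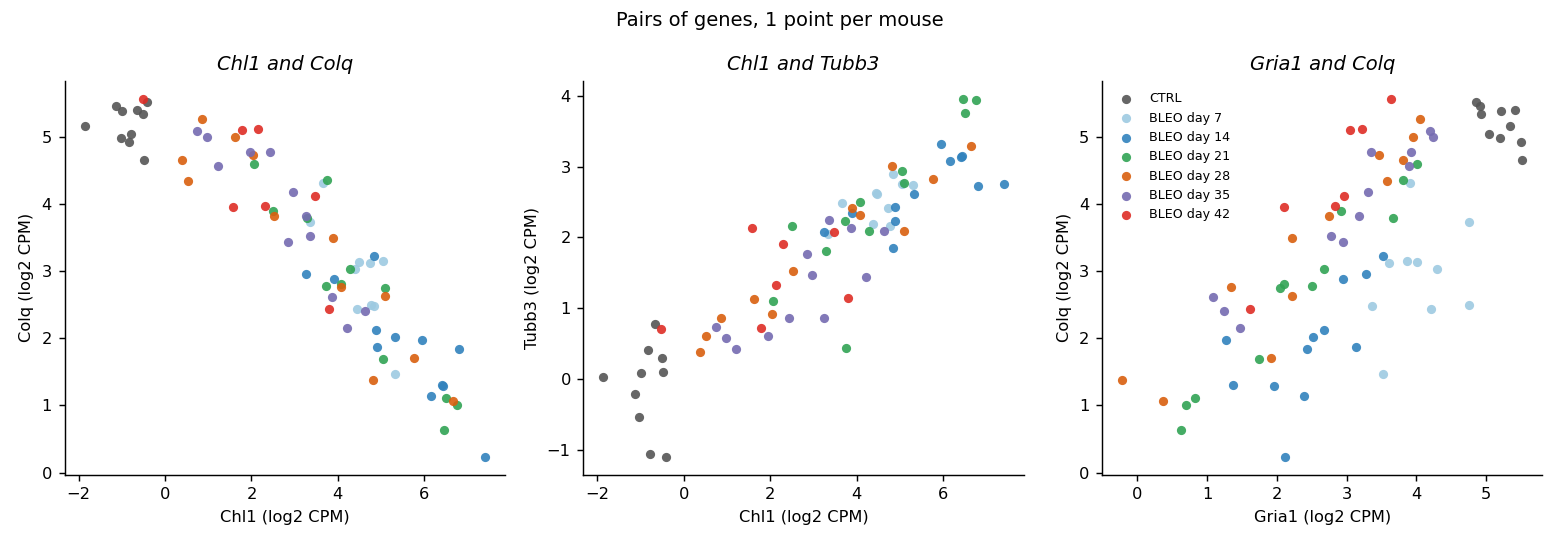
Log2 CPM of 3 pairs of genes, 1 point per mouse, coloured by group. On days 14 to 35 *Colq* is low where *Chl1* is high and *Tubb3* is high where *Chl1* is high, and *Gria1* and *Colq* are high together from day 21, with most day 42 mice at a higher *Colq* level for their *Gria1* level than day 7 mice.

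**Figure D3:**
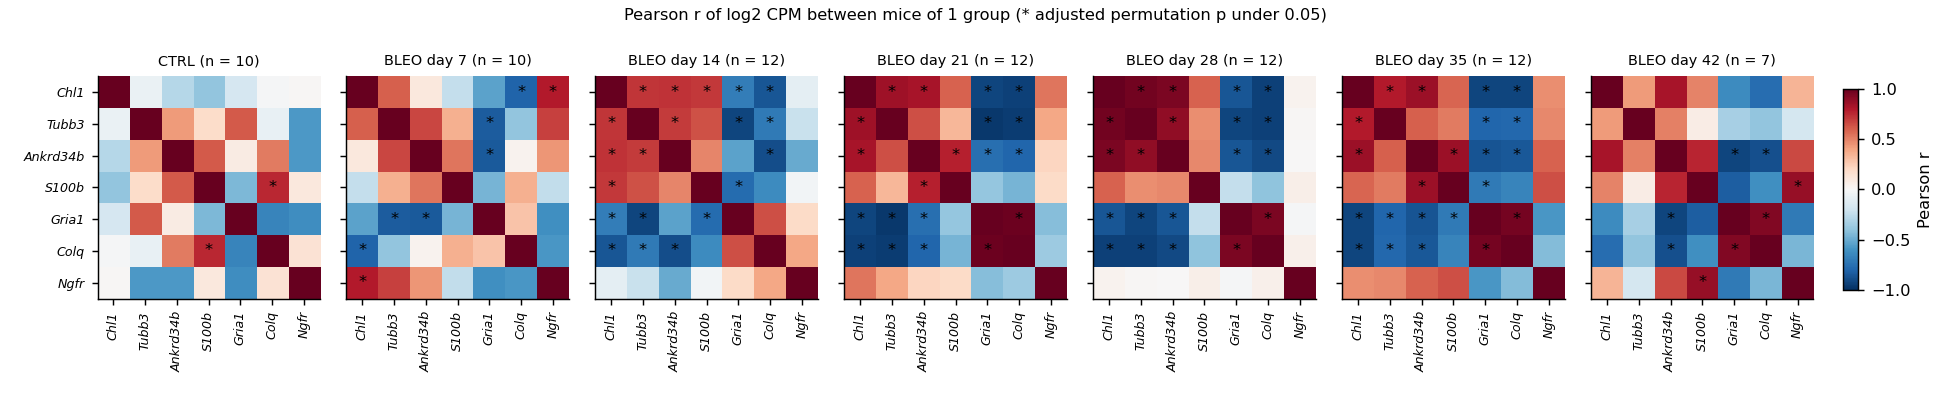
Pearson's r of log2 CPM for all pairs of the 7 genes among the mice of each group, from blue (-1) to red (1), with an asterisk where the adjusted permutation p is under 0.05. A red set of *Chl1*, *Tubb3* and *Ankrd34b* and a red pair of *Gria1* and *Colq*, blue against each other, stand out on days 14 to 35. Within them, *Tubb3* with *Ankrd34b* did not pass on days 21 and 35, nor *Gria1* with *Colq* on day 14. In CTRL mice, where libraries held at most 6 counts of *Chl1* and 5 of *Ankrd34b*, 1 pair passes.

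Many other genes varied in step with these. On day 28, 11.4% of 13066 genes had an r of at least 0.7 with *Chl1* and 7.84% an r of -0.7 or less, and for *Colq* the shares were 8.53% and 12.2%. In CTRL mice, with 1 to 6 counts per library, the shares for *Chl1* were 1.02% and 0.926%, which are not comparable with those of day 28. For *Ngfr* on day 28 the shares were 0.857% and 0.314%, with 6 to 43 counts per library, where counting error lowers any r. These shares are a description, and the genes compared share libraries and depth.

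Over all 75 mice, group differences included, the gene most like *Chl1* was *Sfrp1*, a secreted Wnt-binding protein (r = 0.97), and it remained so after each group mean was taken off (r = 0.93). *Tubb3* was most like *Slc39a1* (r = 0.93, and 0.83 after group means), *Ankrd34b* most like *Lhfpl2* (0.92) and, after group means, *Fn1* (0.85), which encodes fibronectin. *Colq* was most like *Pcolce2* (0.93), an enhancer of procollagen processing, and after group means *Gsn* (0.92), the gene of gelsolin. *Gria1* was most like the potassium channel gene *Kcna2* (0.91) and, after group means, *Gsn* (0.93). *S100b* was most like the complement gene *C1qa* (0.86), and after group means *Pdgfrl* (0.66). *Ngfr* had weaker neighbours, *Mgl2* (0.64) and, after group means, *Cd180* (0.66). These are the highest of 13066 genes and carry no test.

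Scores of marker genes for other cell types (the mean z score of a list) were set against the 7 genes within each group, 686 correlations of which 107 passed after adjustment over all. *Chl1* went with the monocyte-derived macrophage score on day 28 (r = 0.93, rho = 0.88, adjusted permutation p = 0.00229 and 0.00707) and with the myofibroblast score (r = 0.93, rho = 0.91, adjusted permutation p = 0.00187 and 0.00468). *Colq* went against both on that day (r = -0.91 and -0.89, rho = -0.85 and -0.89) and with the score of alveolar and adventitial fibroblasts (r = 0.81, rho = 0.85, adjusted permutation p = 0.0162 and 0.0106). *Gria1* had the same signs, with r of -0.90, -0.73 and 0.84 and rho of -0.90, -0.87 and 0.83, all past the threshold. Without the 2 mice farthest from the median, r lay between 0.73 and 0.93 where it was positive and between -0.98 and -0.86 where it was negative.

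Those lists moved between groups too. Of 10 macrophage markers 9 rose and none fell on day 14, with a summed level of 691 to 967 CPM in CTRL mice and 2769 to 13777 CPM on day 14. Of 10 myofibroblast markers 9 rose, from 1955 to 2709 CPM to 6442 to 23055 CPM. Of 10 alveolar and adventitial fibroblast markers 3 rose and 5 fell, from 4395 to 5370 CPM to 2486 to 3443 CPM. Their part in the levels of the 7 genes was not tested.

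The Schwann cell score, over 24 genes, had 8 of its 49 correlations past the threshold, a share close to that over all scores given above. The summed level of its genes was 1844 to 2135 CPM in CTRL mice and 1089 to 2003 CPM on day 14. The score itself had a median of -0.10 in both groups. *Tubb3* had an r of -0.83 and a rho of -0.87 with it on day 21 (adjusted permutation p = 0.0106 and 0.00747), and *Ankrd34b* an r of -0.80 and a rho of -0.79 on day 14 (adjusted permutation p = 0.0193 and 0.0279). *Chl1* had an r of -0.71 with it on day 14 that did not pass, and a rho of -0.87 that did. *Colq* went with it on days 14, 21 and 28 (r = 0.81, 0.80 and 0.80, rho = 0.92, 0.75 and 0.78). The day 28 values include replicate 10, whose library held transcripts of fat, nerve and muscle, and values without it are not given here. *S100b* had an r of 0.85 with it in CTRL mice (adjusted permutation p = 0.0198), where rho, at 0.76, did not pass, and on the BLEO days none of its correlations with this score passed. The neuron score, over 10 genes, passed in 2 of its 49 correlations, both negative.

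The 2 libraries with high *Cldn19* and *Adipoq* also held the highest *Ngfr* level of their day, 4.66 and 4.31 CPM. Without them the highest levels were 3.07 CPM on day 7 and 2.36 CPM on day 28, and the log2FC of *Ngfr* was 0.87 on day 7 and 0.26 on day 28. On day 7, 5 of the remaining 9 mice were above all CTRL mice. *S100b* stood near the middle of its day in both, at 2.75 and 3.21 CPM beside day medians of 2.80 and 3.00. The day 7 library also held the highest *Ankrd34b* level of its day, 1.58 CPM, where the other 9 reached 0.832 CPM.

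*Drp2*, a gene of myelinating Schwann cells, rose on day 28 with a log2FC of 1.57 (SE 0.33) with all mice and 1.15 (SE 0.28) without the 2.

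**Figure D4:**
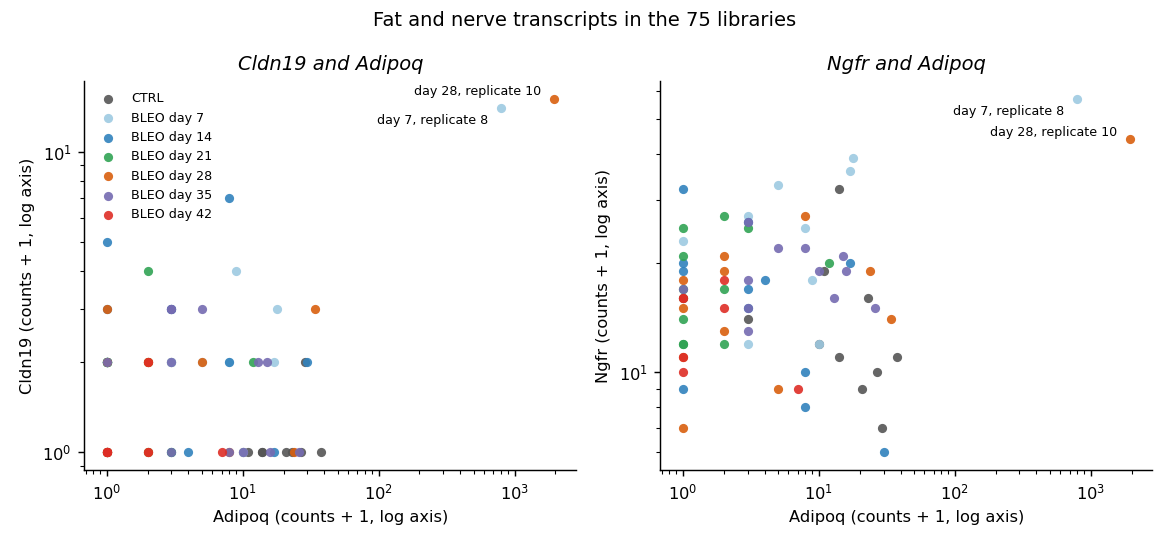
Counts of *Cldn19* (left) and *Ngfr* (right) against counts of *Adipoq* in the 75 libraries, each plus 1, on log axes and coloured by group. Replicate 8 of day 7 and replicate 10 of day 28 lie far above the other libraries in *Adipoq*, hold the most *Cldn19* counts and have the highest *Ngfr* counts of their days, 56 and 43.

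The wider set of nerve genes, 171 genes in 7 lists without the members, was tested against CTRL with edgeR's quasi-likelihood test, adjusted over all 16221 genes. Of these 100 had enough counts. On day 7, 17 rose and 19 fell, on day 14, 34 rose and 28 fell, on day 21, 31 rose and 24 fell, on day 28, 28 rose and 16 fell, on day 35, 23 rose and 14 fell, and on day 42, 22 rose and 16 fell. Thus 36%, 62%, 55%, 44%, 37% and 38% were past the threshold where 45.8%, 62.4%, 54.2%, 43.3%, 29.9% and 24.7% of all genes were. The median log2FC of the 100 lay between -0.02 and 0.06 on the 6 days and that of all genes between -0.00 and 0.02. On days 14 to 28 the share past the threshold was thus close to that of all genes. It was lower than that of all genes on day 7 and higher on days 35 and 42, and these differences were not tested. Without the 2 libraries that stood apart, 16 rose and 15 fell on day 7 and 31 rose and 16 fell on day 28.

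Among myelinating Schwann cell genes, 4 rose and 5 fell of 14 tested on day 14. *Pllp*, a membrane protein of myelin, fell by 0.97 on the log2 scale. *Egr2*, a transcription factor of myelination that macrophages and lymphocytes also use, rose on all days, with a log2FC of 1.91 (SE 0.20) on day 14 and 1.07 on day 42. *Mal*, a membrane protein of myelin and of epithelia, rose by 1.13 to 1.22, and the gap junction gene *Gjb1* rose by 2.30 on day 42.

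Of the non-myelinating and repair Schwann cell genes 3 rose and 4 fell of 10 on day 14. *Cdh19*, a cadherin of Schwann cell precursors, fell on all 6 days, by 1.43 on the log2 scale on day 14 (SE 0.38, adjusted p = 8.07e-04, edgeR) and by 1.43 on day 42, and on day 28 its call was lost without a filter on low counts (adjusted p = 0.0951) and with DESeq2 (adjusted p = 0.052). *Erbb3*, a neuregulin receptor, fell by 0.56 on day 14 and was at 0.05 on day 42, which did not pass. The sodium channel gene *Scn7a* fell by 0.84 on day 14. *Tfap2a*, a transcription factor of neural crest and epidermis, rose on all days, with a log2FC of 3.48 (SE 0.52, adjusted p = 3.53e-08) on day 14, from 0.353 CPM in CTRL. *Ncam1* rose by 1.29 on day 14.

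Of 10 neuron genes tested 4 rose and 3 fell on day 14. *Map2*, a microtubule-associated protein of dendrites, rose by 1.46 (SE 0.14) and the synapsin gene *Syn1* by 1.20 (SE 0.26), while *Mapt*, which encodes tau, fell by 1.08 (SE 0.14), *Stmn2* by 0.59 and the galanin gene *Gal* by 1.14. The neuropeptide gene *Npy* had 0 counts in all 10 CTRL libraries and 1 to 11 counts in each of the 12 libraries of day 14. Against a floor of 3 counts over the CTRL group its level was at least 15-fold higher on day 14, where 56 counts were seen, and at least 32.8-fold higher on day 42, where 6 of 7 mice had a count.

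Around *Ngfr*, the neurotrophin ligands and receptors were tested as a list. The BDNF receptor gene *Ntrk2* was at -0.04 on day 7 and rose from day 14, by 1.56 (SE 0.37) then and 1.91 on day 42. *Ntrk3*, a receptor of the same family, passed on no day. *Sort1*, the co-receptor sortilin, fell by 0.38 on the log2 scale on day 7 and passed on no later day, except day 14 under 2 alternatives (upper quartile factors, adjusted p = 0.0433, and the replicate block, adjusted p = 0.0481). *Rtn4r*, the Nogo receptor that pairs with p75, rose by 1.65 on day 14. In this list 10 rose and 2 fell of 20 tested on day 14, and 8 rose and 0 fell on day 42.

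Beside *Gria1*, the other AMPA receptor subunits went separate ways. *Gria2* rose on days 14 to 35, with a log2FC of 2.19 on day 21, from 0.337 CPM in CTRL. *Gria3*, at 42.4 ± 7.28 CPM (SD, n = 10) in CTRL, was at 0.17 on day 14, which did not pass, and fell by 0.71 on the log2 scale on day 42 (adjusted p = 9.81e-07, edgeR). *Gria4* had at most 6 counts in a library. Of 16 glutamate receptor and auxiliary subunit genes tested, 4 rose and 4 fell on day 14, and 0 rose and 4 fell on day 42.

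Beside *Colq*, *Ache*, the acetylcholinesterase that it anchors, rose by 0.74 on day 14 (SE 0.22, adjusted p = 0.0027, edgeR) and by 0.72 on day 42, where the call was lost without a filter on low counts (adjusted p = 0.0533). *Bche*, the related butyrylcholinesterase, fell on all days, by 1.06 on the log2 scale on day 14 (SE 0.20) and by 1.49 on day 42. *Prima1*, the membrane anchor of the same enzymes, had at most 6 counts. The nicotinic receptor gene *Chrna7* rose by 2.40 on day 7 and 2.11 on day 14, and the muscarinic receptor gene *Chrm3* fell by 0.63 on the log2 scale on day 14. Of 11 cholinergic synapse genes tested 4 rose and 3 fell on day 14.

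In the L1 family of *Chl1*, *Nrcam* rose on all days, by 2.42 on day 14 (SE 0.20, adjusted p = 1.35e-16, edgeR), and *Nfasc* on days 7 to 35, by 2.69 on day 14 (SE 0.51). *L1cam* fell by 0.57 on the log2 scale on day 14 (SE 0.12), and *Cntn1*, a contactin, by 1.29. Of 19 genes of this list 5 rose and 7 fell on day 14.

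Among tubulin genes 10 of 13 rose and 2 fell on day 7, and 8 rose and 2 fell on day 14. *Tubb6* rose by 2.09 on day 14 (SE 0.21), *Tubb2b* by 1.40, *Tubb2a* by 0.87 and *Tubb5* by 0.80, all less than the 2.96 (SE 0.37) of *Tubb3*, without a test of that difference. *Tubb1*, the platelet tubulin, and *Tubb4a* fell by 1.02 and 0.73 on the log2 scale. Of 12 S100 genes 7 rose and 0 fell on day 14, *S100a4* and *S100a14* by 2.37 each and *S100a1* by 0.40. *Ankrd34a* rose by 2.61 on day 14 (SE 0.40), and *Ankrd34c* had at most 2 counts in a library.

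**Figure D5:**
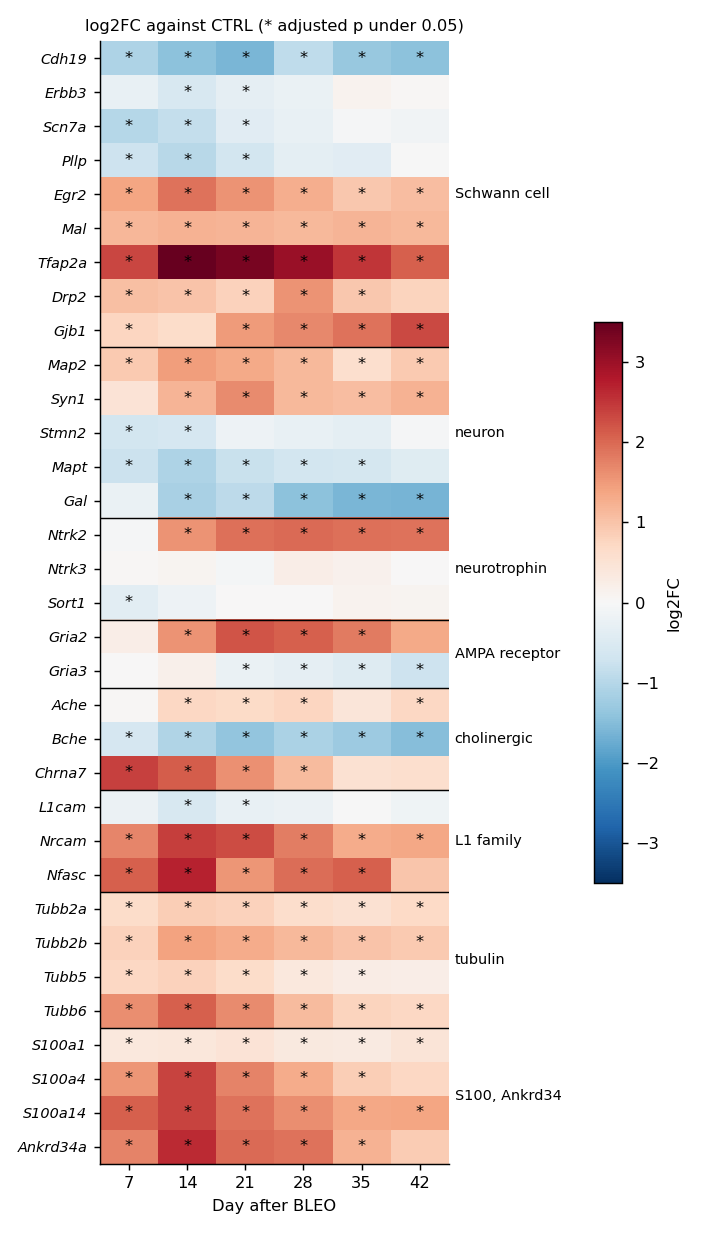
Log2FC against CTRL on each day for list genes grouped by function, from blue (lower) to red (higher), with an asterisk where the edgeR adjusted p is under 0.05. *Cdh19* and *Bche* are lower and *Tfap2a*, *Nrcam* and *Egr2* higher on all 6 days.

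Between day 42 and day 14, 19 of the 100 nerve list genes were higher on day 42 and 21 lower, where 34% of all genes tested differed. The log2 difference, day 42 minus day 14, was -1.72 in *Nfasc* and -1.52 in *Chrna7*, and 1.65 in *Gjb1*. *Cdh19* at -0.00 and *Ntrk2* at 0.35 did not pass.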

How the data were processed

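RNA sequencing (polyA, directional library kit) was made from the inferior lobe of 75 mice. Per the labels, the authors aligned the reads to GRCm38 with STAR 2.7.0f; the counting program and its strand setting are not given in the sources used here. The deposited values are raw counts per gene, whole numbers that were not normalised by the authors, for 55536 genes with Ensembl identifiers; symbols and lengths came from GENCODE M21, which held all of them.

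From these counts, genes were filtered (filterByExpr), scaled (TMM factors) and fitted in edgeR 4.0.16 (R 4.3.3) with 1 mean per group over all 75 mice, with Benjamini-Hochberg adjustment of the quasi-likelihood F test across 16221 genes (threshold 0.05). Each SE is the absolute log2FC divided by the square root of that F, with 1 spread per gene shared by all groups, and is approximate. CPM use TMM-scaled library sizes, and log2 CPM a prior count of 2. Correlations used 100000 permutations (two-sided; exact for n = 7), whose smallest possible p is 1e-05. The self-test drew simulated counts with 200 changed genes. DESeq2 1.42.0 and other settings were alternatives. The labels do not say that mice came from separate cages or experiments, so p-values cover the spread between these mice.

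The members and gene lists were chosen with earlier results of these data known. Named list genes were the 3 largest rises and 3 largest falls of each list on day 14, the largest of each on day 42, and fixed partners of the members; some genes of these lists are counted but not reported by name here. *Mbp*, *Cldn19*, *Adipoq* and *Acta1*, the 2 libraries left out and the 3 mice of day 21 were chosen after values were seen. Genes most like a member had the highest r among genes with a mean log2 CPM above 1. No 2 libraries of a group were alike within sampling noise (lowest chi-square per degree of freedom 3.88 over 375 pairs). Poisson intervals and the floor of 3 counts cover counting error only. No protein sequences were used here, and promoters of *Gria1* and *Colq* were not analysed here.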

Additional observations from a re-analysis of the deposited data

Results flagged for a closer look

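The *Ankrd34b* level of 1.58 CPM in replicate 8 of day 7 stood farther from the other 9 mice of that day than Dixon's 95% critical value for 10 samples allows. Chance gives about 1 such case in 20 groups. The 7 genes were checked in CTRL mice and on days 7 and 42, not on the other days, and this was the only case. The same library held the *Cldn19* and *Adipoq* counts given above, whose part in this level was not tested.

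Of 55 named list genes tested, 30 differed between the days 14 and 42 in their departure from CTRL, tested directly as day 42 against day 14 (edgeR's quasi-likelihood test, adjusted over all genes), where 34% of all genes did. Most were named for a large difference on day 14, which is part of this contrast: 9 of the 11 that were higher on day 42 were named as day 14 falls, and 17 of the 19 that were lower as day 14 rises. The direction and the count are therefore a description of genes so chosen. Higher on day 42 were 11 genes, with a log2 difference of 0.96 in *Pllp*, 1.65 in *Gjb1*, 0.72 in *Scn7a*, 0.61 in *Erbb3*, 0.66 in *Mapt*, 0.57 in *Stmn2*, 0.49 in *Gfra1*, 0.51 in *Nptx1*, 0.76 in *Cntn4*, 0.41 in *L1cam* and 0.27 in *Sort1*. Lower on day 42 were 19 genes, with a log2 difference of -0.84 in *Egr2*, -1.38 in *Tfap2a*, -1.40 in *Ncam1*, -0.55 in *Map2*, -1.01 in *Rtn4r*, -1.08 in *Cnih2*, -0.45 in *Grin2d*, -1.52 in *Chrna7* and -0.90 in *Dok7*. The remaining genes that were lower had a log2 difference of -1.72 in *Nfasc*, -1.06 in *Nrcam*, -1.37 in *Tubb6*, -0.83 in *Tuba1c*, -1.01 in *S100a14*, -1.64 in *S100a4*, -0.85 in *S100a6*, -1.71 in *Ankrd34a*, -0.88 in *Gria3* and -0.57 in *Tubb5*. The calls of *Cntn4*, *L1cam*, *Sort1*, *Rtn4r* and *Cnih2* were lost under at least 1 alternative.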

How the results depend on the processing

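The log2FC of the 7 genes moved by less than the spread between mice in 302 comparisons with an alternative. The other 4 were *Ankrd34b*, whose difference of group medians was 4.15, 3.83, 2.98 and 3.08 on days 14, 21, 35 and 42, from a CTRL group with 1 to 5 counts. Leaving out each mouse in turn kept all 875 values within that spread. That spread is the SD of log2 CPM of single mice of the BLEO group, from 0.28 in *Tubb3* on day 7 to 2.15 in *Chl1* on day 28. A single mouse or another scaling can hardly move the value of a group that far, so nothing is read from the 302 or the 875. Restricting the fit to the groups compared gave no value for *Chl1* on day 42 and *Ankrd34b* on day 7, which the filter on low counts then removed. Requiring an absolute log2FC of at least 0.5 as well left 11, 15, 10 and 9 nerve list genes lower on days 7, 21, 28 and 35, and the other 106 counts stayed within 1.5 times. Among named list genes, over all alternatives and the fit without the 2 libraries with nerve and fat transcripts, which was chosen after seeing the data, 37 calls were lost, 34 gained and none reversed, and 2562 kept their side of the threshold. The correlations past the threshold were 20 positive and 30 negative with a prior count of 0.5 and 18 and 29 with library size scaling.

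Same-numbered mice did not deviate together (median r of -0.006 over 204 pairs and 0.002 over 2196 other pairs). Of 75 mice, 8 correlated best with their own number. No pairing by number was seen in this measure, which cannot exclude a weak one. With the replicate block, 34 nerve list genes rose and 30 fell on day 14, and the log2FC of *Chl1* was 7.42 on day 14. Depth limits *Chl1*, *Ankrd34b*, *Tubb3*, *S100b* and *Ngfr*, whose control libraries hold at most 6, 5, 17, 28 and 31 counts.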
